A study of Mus musculus with 45 samples.

Results

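Induced myogenic progenitor cells (iMPCs) that had been sorted for Pax7 were compared with the unsorted culture on day 10 of the treatment that leads from fibroblasts towards such cells. The comparison was set by sample titles: the 3 libraries titled as Pax7-GFP-positive iMPCs against the 3 titled as day 10 of MyoD with F/R/C, 6 of the 45 bulk RNA-seq libraries of the series. The series followed mouse embryonic fibroblasts (MEFs) with a doxycycline-inducible MyoD, the transcription factor that can turn fibroblasts into muscle, alone or together with a mix of compounds labelled F/R/C. All 6 libraries carry the genotype label Tg:Pax7-nGFP/C57BL6;DBA2, a transgenic reporter that puts green fluorescent protein in the nuclei of cells that express Pax7. The day 10 cultures were MEFs given Dox+F/R/C for 10 days, and their cell type label names muscle fibers together with progenitor cells. The sorted iMPCs carry "FACS-purified" as their treatment, and the labels used here give neither their time in culture nor whether doxycycline was present. The labels do not name the promoter behind the transgene, and reads from the transgene and from the native Myod1 gene were not told apart. They also do not say that replicates came from separate cultures, so the p-values below measure only the spread between samples. That spread was estimated in a fit of all 45 libraries, not from these 6 alone.

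Pax7 is a transcription factor of muscle stem cells, also called satellite cells. When such cells are activated they divide as myoblasts with Myf5 and MyoD, and they leave the cell cycle as Myog and the MEF2 factors switch on the genes of the contractile apparatus. Notch signalling is known to hold muscle progenitors back from differentiation, and fibroblasts are marked by collagens and by surface proteins such as Thy1.

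The day 10 culture held in excess most listed genes of differentiated muscle fibres and of smooth muscle, and some fibroblast genes such as Col1a1, while the sorted iMPCs were higher in genes of DNA replication and in a few progenitor and Notch genes. Of 17325 genes tested, 4267 were called, or 24.6%, at an edgeR adjusted p under 0.05 and an absolute log2 difference of at least 1. The sorted iMPCs were higher in 1020 genes, or 5.89%, and lower in 3247, or 18.7%. Counts of called members in the gene lists below stand beside these shares. In 874 of the lower genes and 24 of the higher ones, no library of the lower group passed 3 reads, so that their fitted differences have no fixed size. The median log2 difference of all genes tested was -0.06. Every sorted library was above every day 10 library in 4060 genes, or 23.4%, and below every one in 4663, or 26.9%. Levels are given as CPM, read counts per M reads of a library size scaled by the TMM factors of edgeR, with replicates in the order 1, 2, 3. In these bulk samples fewer cells of a type and less RNA per cell cannot be told apart.

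**Figure D1:**
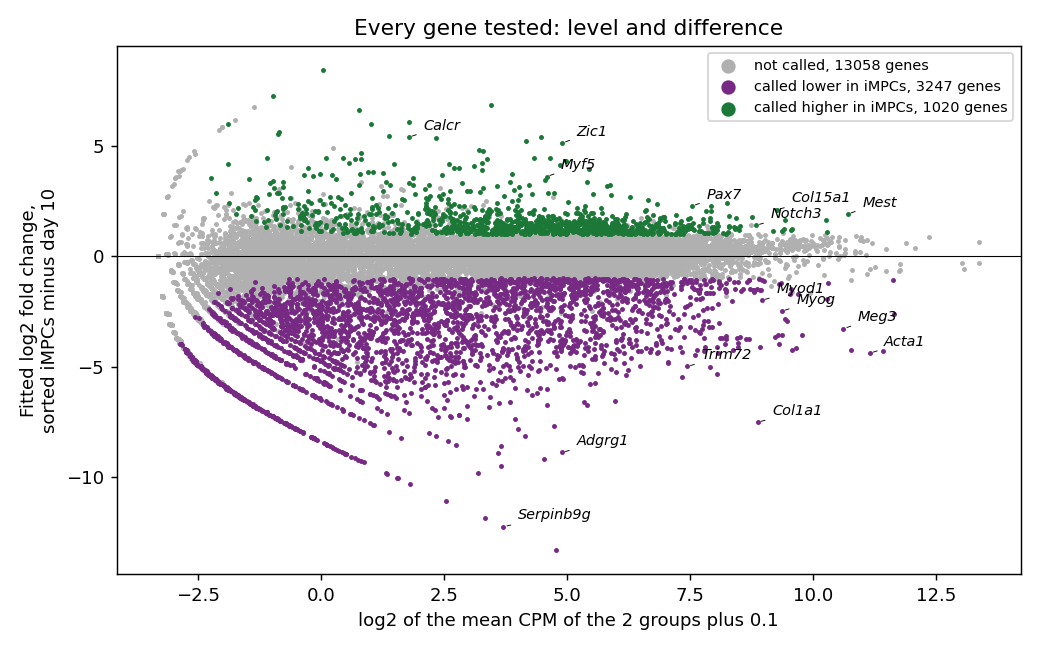
Fitted log2 difference of every gene tested (sorted iMPCs minus day 10, vertical axis) against its level (log2 of the mean CPM of both groups plus 0.1, horizontal axis). Green marks the 1020 genes called higher in the sorted iMPCs and purple the 3247 called lower, and the curved lower edge is made of genes with almost no reads in the sorted libraries, whose fitted values have no fixed size.

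The libraries held 17.8 to 22.3 M estimated reads in the sorted group and 18.8 to 26.7 M on day 10. Replicates correlated across genes with r from 0.956 to 0.973 in the sorted iMPCs and from 0.963 to 0.978 on day 10. Within each group, replicates 1 and 2 expressed Xist and replicate 3 expressed Y-linked genes, so both groups had the same mix and same-numbered libraries matched in this. The 2 groups were not quantified with the same fragment-length setting. The fragment length implied by the effective lengths, as a median over transcripts, was 152.81 bases in each of the 3 day 10 libraries and 180.03 bases in each of the 3 sorted ones. Effective length exceeded length in 13626 to 14019 transcripts of the day 10 libraries and 19272 to 20377 of the sorted ones. A subtracted fragment length alone does not give this, so the effective lengths hold more than that setting. The setting and the sort cannot be told apart. The sorted cells went straight into lysis buffer, whereas cultures were detached with trypsin, per the labels. Of 24 immediate early and heat shock genes, which handling can switch on, none was higher and 6 were lower in the sorted iMPCs (1 and 4 without sorted replicate 2). The 6 are 25% of the list, beside 18.7% of all genes tested, and the part of handling was not tested. With an offset from the effective lengths the counts of called genes were 1430 higher and 3561 lower, and 89.9% of the calls were shared. Median transcript length was 1598 bases in the genes called higher, 1775 bases in those called lower and 1495 bases in genes not called.

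Among 16 progenitor regulators and markers, all tested, 6 were higher in the sorted iMPCs, none was lower, and the median log2 difference was 1.18 against -0.06 for all genes. Pax7, whose reporter the sort used, is among these 6 and enters the median. Without sorted replicate 1 the counts were 7 higher and 2 lower. Pax7 itself (chr4:139737062-139833528 in GRCm38, minus strand) was 263, 351 and 305 CPM in the sorted iMPCs, against 75.7, 67.9 and 47.1 CPM on day 10. The sort used a reporter of this gene, so its 4.82-fold higher mean in the sorted libraries (log2 difference 2.27, SE 0.45, edgeR adjusted p = 0.000181) checks the labels and is no finding. The day 10 libraries all lay below the sorted ones and all held Pax7 reads, whereas untreated MEFs had 0.0155 ± 0.0268 CPM (SD, n = 3). Myf5, the MyoD relative that marks committed muscle progenitors, was 38.6, 27.8 and 65.4 CPM in the sorted iMPCs, against 1.91, 3.41 and 5.51 CPM on day 10. The groups did not overlap and the sorted mean was 12.2 times higher (log2 difference 3.60, SE 0.57, edgeR adjusted p = 4.94e-05). Fgfr4, a fibroblast growth factor receptor of embryonic and regenerating muscle, was 607, 577 and 815 CPM in the sorted iMPCs, against 189, 218 and 180.1 CPM on day 10, again with no overlap (log2 difference 1.77, SE 0.54, edgeR adjusted p = 0.00964). Its call was lost with an offset from effective length and with limma on TPM, and kept in the other 12 of 14 alternatives.

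The other called progenitor genes varied more between the sorted libraries. Calcr, the calcitonin receptor that marks quiescent satellite cells, was 1.30, 16.9 and 1.29 CPM in the sorted iMPCs, against 0.278, 0.146 and 0.0353 CPM on day 10. It stood above day 10 in every sorted library, but replicate 2 held most of it (log2 difference 5.38, SE 1.22, edgeR adjusted p = 0.00453). Chodl, a membrane protein with a C-type lectin domain, was 3.25, 27.03 and 28.1 CPM in the sorted iMPCs, against 0.835, 1.46 and 0.459 CPM on day 10. Here replicate 1 was the low one of the sorted group, and the groups still did not overlap (log2 difference 4.41, SE 0.84, edgeR adjusted p = 0.000107). Cxcr4, a chemokine receptor of migrating progenitors, was 14.9, 45.3 and 14.1 CPM in the sorted iMPCs, against 5.68, 3.26 and 8.37 CPM on day 10 (log2 difference 2.10, SE 0.74, edgeR adjusted p = 0.0227), and this call was lost without day 10 replicate 1 or 2 or sorted replicate 2.

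The remaining 10 progenitor genes were not called, and most of them had reads in every library of both groups. Cdh15, the M-cadherin of muscle cell contacts, was 765, 535 and 528 CPM in the sorted iMPCs, against 872, 887 and 674 CPM on day 10. Itga7, the laminin receptor subunit of muscle, was 530.1, 442 and 423 CPM in the sorted iMPCs, against 383, 363 and 741 CPM on day 10, and day 10 replicate 3 was the highest of all 6. Heyl, a target of Notch in satellite cells, was 137, 509 and 347 CPM in the sorted iMPCs, against 168, 124 and 88.5 CPM on day 10. In it, sorted replicate 1 fell within the day 10 range while the other 2 were above it (log2 difference 1.38, SE 0.61, edgeR adjusted p = 0.0686). Spry1, an inhibitor of growth factor signalling linked to quiescence, was 15.9, 104 and 109 CPM in the sorted iMPCs, against 97.1, 103 and 117 CPM on day 10, with sorted replicate 1 alone far below. The heparan sulfate carriers Sdc3 and Sdc4 and the adhesion protein Vcam1 overlapped between groups, and Sdc3 ran from 8.02 to 265 CPM among the sorted libraries. Tenm4, another membrane protein, overlapped too, and Pax3 was at most 0.173 CPM in every library.

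**Figure D2:**
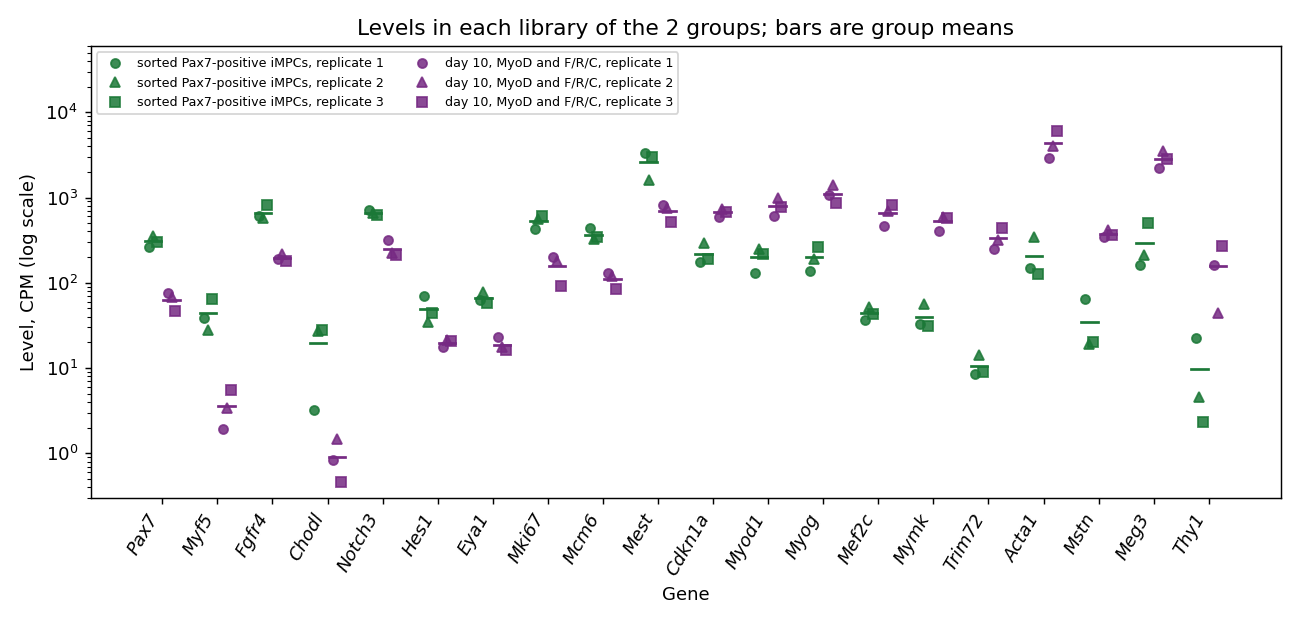
Level of 20 genes in each of the 6 libraries, in CPM on a log axis, with symbols for replicates 1 to 3 and bars for the group means. Pax7, Myf5, Fgfr4, Notch3 and Mki67 lie higher in the sorted iMPCs (green), and Myog, Mef2c, Mymk, Trim72, Acta1 and Meg3 lie higher on day 10 (purple), with no overlap in any of these.

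A few Notch genes were higher too, with smaller differences. Of 20 listed, 18 were tested, 4 were higher in the sorted iMPCs and none lower, and their median log2 difference was 0.75. With the offset from effective length 2 were higher and 2 lower, and with limma on TPM 2 were higher and 1 lower. That offset takes up the fragment setting and whatever else differs in the effective lengths. Notch3, a receptor, was 712, 654 and 620.5 CPM in the sorted iMPCs, against 315, 223 and 214 CPM on day 10, so the lowest sorted library was well above the highest day 10 one (log2 difference 1.40, SE 0.50, edgeR adjusted p = 0.0237). Hes1, the repressor that Notch switches on, was 69.4, 35.2 and 44.7 CPM in the sorted iMPCs, against 17.5, 21.4 and 20.9 CPM on day 10 (log2 difference 1.32, SE 0.23, edgeR adjusted p = 3.00e-05). Lfng, which adds sugars to Notch receptors, was 58.4, 63.8 and 91.3 CPM in the sorted iMPCs, against 25.5, 27.1 and 11.6 CPM on day 10 (log2 difference 1.73, SE 0.71, edgeR adjusted p = 0.0495), and Dtx4, a ubiquitin ligase of the pathway, was 219.5, 412 and 442 CPM in the sorted iMPCs, against 130.2, 117 and 112 CPM on day 10 (log2 difference 1.58, SE 0.63, edgeR adjusted p = 0.0457). All 4 were above day 10 in every sorted library. The call of Lfng was kept in 6 of 15 alternatives and lost whenever 1 of the 6 libraries was left out. That of Dtx4 was kept in 7 of 15 and in only 1 of the 6 fits without a library, the one without sorted replicate 1. The call of Notch3 was lost without day 10 replicate 2 or 3 or sorted replicate 1. The calls of Notch3, Hes1 and Dtx4 were also lost with the offset.

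The receptors Notch1 and Notch2 lay above day 10 in all 3 sorted libraries without reaching the fold that a call asks for, at log2 differences of 0.90 and 0.85. Hey1 and Nrarp, further Notch targets, also lay above without overlap and missed the adjusted p threshold at 0.0533 and 0.0553 in edgeR. The ligands showed no such lean. Dll1 was 45.8, 58.3 and 73.4 CPM in the sorted iMPCs, against 50.004, 49.9 and 36.3 CPM on day 10, with overlap. Jag1 was 25.3, 43.2 and 28.5 CPM in the sorted iMPCs, against 49.1, 33.7 and 28.9 CPM on day 10, with overlap too. Jag2 was 30.3, 36.1 and 31.3 CPM in the sorted iMPCs, against 43.8, 53.8 and 97.99 CPM on day 10, lower in every sorted library but not called. Rbpj, the DNA-binding partner of Notch, was not called either, at a log2 difference of -0.41. Without day 10 replicate 3 a single Notch gene was called higher, and without sorted replicate 2 the number was 2.

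Myod1 and the later muscle regulatory factors Myog, Mef2c and Myf6 were in excess on day 10. Of 12 myogenic and MEF2 factors, 5 were lower in the sorted iMPCs and 2 higher, with a median log2 difference of -0.92. Myod1 was 132, 249.96 and 216 CPM in the sorted iMPCs, against 607, 992 and 777 CPM on day 10, with all day 10 libraries above all sorted ones (log2 difference -1.99, SE 0.58, edgeR adjusted p = 0.00696). Because native and transgenic reads are summed, this value does not separate the induced factor from the cells' own gene. Myog, which drives the exit into differentiation, was 139, 190.03 and 266 CPM in the sorted iMPCs, against 1086, 1390.5 and 861 CPM on day 10 (log2 difference -2.49, SE 0.78, edgeR adjusted p = 0.0115). Mef2c, its partner at muscle promoters, was 37.05, 51.6 and 42.7 CPM in the sorted iMPCs, against 464, 702 and 823 CPM on day 10, a 15.2-fold higher mean on day 10 with no overlap (log2 difference -3.92, SE 0.74, edgeR adjusted p = 0.000106). Myf6, the late MyoD relative of fibres, was 0.823, 5.29 and 2.998 CPM in the sorted iMPCs, against 19.8, 32.2 and 49.1 CPM on day 10 (log2 difference -3.47, SE 0.79, edgeR adjusted p = 0.000836), and Mef2a differed by -1.27 on the log2 scale.

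Besides Myf5, the factor called higher in the sorted iMPCs was Eya1, a transcriptional cofactor of early muscle development, at 63.3, 78.9 and 58.2 CPM in the sorted iMPCs, against 22.9, 17.5 and 16.2 CPM on day 10 (log2 difference 1.82, SE 0.24, edgeR adjusted p = 8.24e-07). Six4, a homeobox factor, lay above day 10 in all 3 sorted libraries and was not called, at a log2 difference of 0.32. Eya4 and Mef2d lay below day 10 in all 3 sorted libraries and were not called. Among 12 Id and E protein genes, 2 were higher and 3 lower, or 3 and 5 with the offset from effective length. Without the offset 16.7% were higher and 25% lower, beside 5.89% and 18.7% of all genes tested. Tcf4 and Snai2, an E protein and a repressor of the Snail family, were higher by 1.09 and 1.41 on the log2 scale. Id4, Twist2 and Snai1 were lower, at log2 differences of -2.67, -3.22 and -1.59. Id1, Id2 and Id3, which block MyoD by taking its E protein partners, overlapped between the groups.

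The genes of the contractile apparatus were lower in the sorted iMPCs almost throughout. All 38 sarcomere genes on the list lay lower in every sorted library than in any day 10 library, beside 26.9% of all genes tested. Of the 38, 37 were called lower and the median log2 difference was -3.90. Their summed level was 0.442 to 0.548% of the scaled library in the sorted iMPCs and 3.04 to 5.06% on day 10. Acta1, the skeletal muscle actin, was 148, 346 and 128 CPM in the sorted iMPCs, against 2882, 4041 and 6058 CPM on day 10 (log2 difference -4.38, SE 0.76, edgeR adjusted p = 3.64e-05). Myh3, the embryonic myosin heavy chain, was 244, 399.7 and 168 CPM in the sorted iMPCs, against 4116, 5271 and 6263 CPM on day 10 (log2 difference -4.27, SE 1.11, edgeR adjusted p = 0.00268), and Myh8, the perinatal one, was 116, 244 and 159 CPM in the sorted iMPCs, against 1919, 3206 and 4781 CPM on day 10. Day 10 replicate 3 was the highest in all 3 genes, and the groups were far apart. Ttn, the giant spring protein, was 55.9, 136 and 101 CPM in the sorted iMPCs, against 843, 1314 and 1262 CPM on day 10, with means 11.7-fold apart.

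Not all sarcomere genes differed so much. Des, the intermediate filament that progenitors already make, was 1101, 700.05 and 504 CPM in the sorted iMPCs, against 1473, 1474 and 2304 CPM on day 10 (log2 difference -1.19, SE 0.44, edgeR adjusted p = 0.0295), a call lost without day 10 replicate 3 or sorted replicate 2 or 3. Tpm1 and Tpm2 differed by -1.49 and -1.95. Tnnt1, the slow troponin T, was the member not called, at 475, 201 and 440.2 CPM in the sorted iMPCs, against 580.2, 816 and 1036 CPM on day 10 (log2 difference -1.12, SE 0.68, edgeR adjusted p = 0.188). At the other end Myl3, a light chain of slow fibres and ventricle, had at most 1 read in each sorted library and 1.95, 5.94 and 27.01 CPM on day 10. That is at least 75.03-fold lower against a floor of 3 reads per library, with day 10 replicate 3 holding most of it. Many sarcomere genes share sequence with relatives, and the deposited counts divide such reads. Among genes whose reads were never divided, 8 sarcomere genes were tested and all 8 were lower. This used the same fit with its p-values adjusted again over such genes, so it is no separate test. When 1 library at a time was left out, 34 to 37 of the 38 genes were called lower.

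The genes that couple nerve signal, calcium and contraction followed. Of 18 excitation-contraction coupling genes, 14 were lower in the sorted iMPCs, none was higher, and the median was -3.17. Cacna1s, the voltage sensor of the calcium channel, was 7.28, 15.1 and 5.79 CPM in the sorted iMPCs, against 156, 284 and 325 CPM on day 10 (log2 difference -4.76, SE 0.75, edgeR adjusted p = 1.06e-05). Jph2, which ties the calcium store to the surface membrane, was 11.2, 20.6 and 13.95 CPM in the sorted iMPCs, against 249, 323 and 342 CPM on day 10 (log2 difference -4.32, SE 0.44, edgeR adjusted p = 1.78e-08). Casq2, the calcium-binding protein inside the store, was 26.7, 54.2 and 19.8 CPM in the sorted iMPCs, against 442, 567 and 883 CPM on day 10. In all 3 the groups lay far apart, with sorted replicate 2 the highest of its group. The release channel Ryr1 was closer to the threshold, at 154, 193 and 203 CPM in the sorted iMPCs, against 458, 629 and 571 CPM on day 10 (log2 difference -1.59, SE 0.65, edgeR adjusted p = 0.0498), and its call was lost whenever 1 of the 6 libraries was left out. The 4 uncalled members were Atp2a1, Pvalb, Ryr3 and Clcn1, of which the first 2 still lay below day 10 in every library.

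Fusion genes were lower as well. Of 12 fusion and membrane repair genes, 7 were lower in the sorted iMPCs and none higher, with a median of -1.38. Mymk, the membrane protein that lets myoblasts fuse, was 32.6, 56.1 and 31.4 CPM in the sorted iMPCs, against 401, 590.01 and 581 CPM on day 10 (log2 difference -3.71, SE 0.84, edgeR adjusted p = 0.000716). Mymx, its small partner, was 4.33, 7.19 and 10.2 CPM in the sorted iMPCs, against 59.03, 93.96 and 72.6 CPM on day 10 (log2 difference -3.38, SE 0.46, edgeR adjusted p = 1.53e-06). Trim72, which patches torn membranes, was 8.45, 14.3 and 8.89 CPM in the sorted iMPCs, against 249.8, 319 and 435 CPM on day 10, and its day 10 mean was 31.7 times the sorted one (log2 difference -4.98, SE 0.69, edgeR adjusted p = 1.69e-06). No library of one group came near the other in these 3 genes. Dysf, Cav3, Jam2 and Jam3 were also called lower, the last of them not without day 10 replicate 2 or sorted replicate 2, whereas Cdon, a surface receptor of myoblast contact, lay above day 10 in all sorted libraries at 0.96 and missed the fold of a call.

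At the synapse the receptor subunits split. Of 11 genes of the acetylcholine receptor and its synapse, 6 were lower (10 with limma on TPM), none higher, and the median was -1.77. Chrna1, the subunit that binds acetylcholine, was 24.8, 74.7 and 37.5 CPM in the sorted iMPCs, against 368, 509 and 389 CPM on day 10 (log2 difference -3.21, SE 0.47, edgeR adjusted p = 4.40e-06), and Chrng, the fetal subunit, was 80.5, 38.6 and 35.5 CPM in the sorted iMPCs, against 329, 413 and 418 CPM on day 10 (log2 difference -2.91, SE 0.66, edgeR adjusted p = 0.000779). Musk, the receptor kinase that gathers them, was 9.97, 18.9 and 18.1 CPM in the sorted iMPCs, against 102, 150.2 and 153 CPM on day 10 (log2 difference -3.11, SE 0.52, edgeR adjusted p = 2.25e-05). Chrnd, another subunit, was 291, 121 and 107 CPM in the sorted iMPCs, against 196, 272 and 313 CPM on day 10, with sorted replicate 1 inside the day 10 range and no call. Of 12 genes of muscle energy metabolism 11 were lower, with a median of -3.43. They include Ckm, the muscle creatine kinase, at 1.52, 5.05 and 2.38 CPM in the sorted iMPCs, against 13.04, 19.7 and 89.02 CPM on day 10, and Pygm, the glycogen phosphorylase, at 18.8, 73.6 and 42.02 CPM in the sorted iMPCs, against 227, 326 and 618 CPM on day 10. In both, day 10 replicate 3 was the highest library.

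Promoters of these genes were searched for one motif because MyoD and Myog bind E-boxes, and CAGCTG is an E-box form they favour. The windows are the 250 bases before each RefSeq start (GRCm38.p6), the motif reads the same on both strands, and a match is a description only. It stood before at least 1 start in 12 of the 30 sarcomere genes with a sequence in the table, or 40%. The shares were 5 of 11 for excitation-contraction coupling, 6 of 10 for energy metabolism, 4 of 7 for the synapse and 1 of 7 for fusion. It stood in 14.7% of all 27025 genes of the table and 15.2% of the 12475 tested genes that matched it. The genes called lower in the sorted iMPCs held it in 479 of 2243 cases, or 21.4%, and those called higher in 121 of 756, or 16%. None of the 11 progenitor genes with a sequence and 1 of the 19 mitosis and replication genes held it. The windows of 3 muscle genes that hold the motif and of Pax7, which does not, are printed 5′ to 3′ with the motif in capitals. The 3 were picked for holding it and do not stand for their lists. Cav3 is the 1 fusion and repair gene of 7 that holds it. Tnnt2, the cardiac and embryonic troponin T, is on the plus strand of chromosome 1 (chr1:135836084-135836333) and has 2 matches, beginning 223 and 157 bases before the start. A second Tnnt2 start in the table has none.
Tnnt2: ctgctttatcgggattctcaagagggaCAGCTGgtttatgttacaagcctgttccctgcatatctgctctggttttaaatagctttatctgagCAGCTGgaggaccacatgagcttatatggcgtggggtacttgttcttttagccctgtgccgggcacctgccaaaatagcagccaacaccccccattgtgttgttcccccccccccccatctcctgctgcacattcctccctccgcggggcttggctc
Chrna1 is on the minus strand of chromosome 2 (chr2:73580339-73580588), with matches that begin 92 and 44 bases before its start.
Chrna1: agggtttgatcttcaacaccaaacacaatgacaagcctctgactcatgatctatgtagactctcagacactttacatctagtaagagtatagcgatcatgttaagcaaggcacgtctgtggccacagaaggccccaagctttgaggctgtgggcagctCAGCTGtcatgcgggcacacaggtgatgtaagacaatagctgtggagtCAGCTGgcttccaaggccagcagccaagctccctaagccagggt
Cav3, the caveolin of the muscle membrane, is on the plus strand of chromosome 6 (chr6:112459255-112459504), with 1 match, beginning 106 bases before its start.
Cav3: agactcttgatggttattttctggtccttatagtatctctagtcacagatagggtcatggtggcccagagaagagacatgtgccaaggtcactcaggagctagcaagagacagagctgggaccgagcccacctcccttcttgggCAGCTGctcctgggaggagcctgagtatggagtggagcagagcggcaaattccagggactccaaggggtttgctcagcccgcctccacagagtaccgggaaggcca
Pax7 is on the minus strand of chromosome 4 (chr4:139832969-139833218).
Pax7: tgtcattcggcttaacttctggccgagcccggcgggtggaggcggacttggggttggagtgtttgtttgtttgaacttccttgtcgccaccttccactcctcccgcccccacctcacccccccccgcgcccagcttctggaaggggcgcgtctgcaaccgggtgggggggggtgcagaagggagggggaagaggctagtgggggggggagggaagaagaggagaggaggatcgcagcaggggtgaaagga
The first 3 genes were called lower in the sorted iMPCs. Tnnt2 was 43.8, 61.8 and 59.95 CPM in the sorted iMPCs, against 522, 867 and 811 CPM on day 10 (log2 difference -3.73, SE 0.81, edgeR adjusted p = 0.000516), and Cav3 was 6.33, 10.5 and 6.87 CPM in the sorted iMPCs, against 47.98, 67.5 and 146 CPM on day 10 (log2 difference -3.46, SE 0.65, edgeR adjusted p = 9.49e-05).

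**Figure D3:**
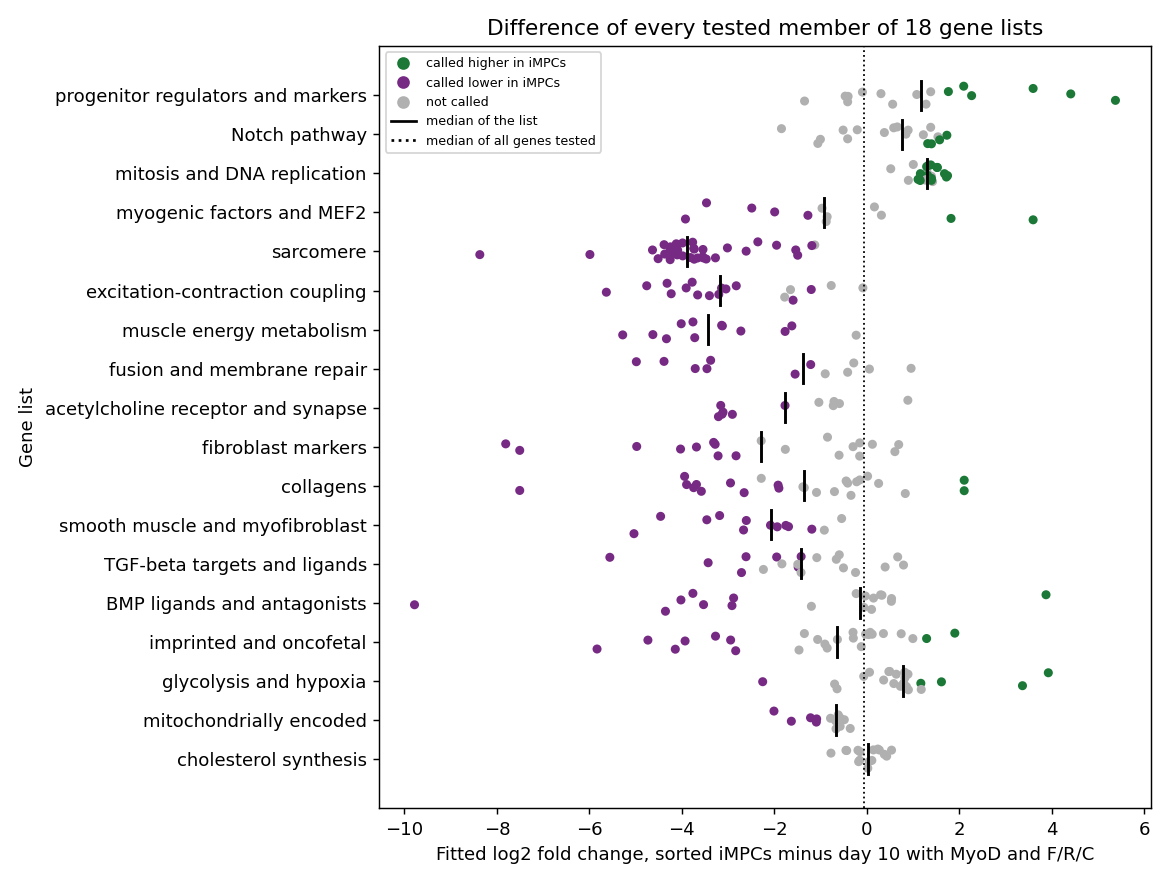
Fitted log2 difference (sorted iMPCs minus day 10, horizontal axis) of every tested member of 18 gene lists, with green and purple points for genes called higher and lower and grey for those not called. Black bars are list medians and the dotted line is the median of all genes tested, -0.06. Sarcomere, coupling and energy genes lie far to the left, and mitosis and replication genes lie to the right in a narrow band.

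Genes of cell division were higher in the sorted iMPCs. Of 24 genes of mitosis and DNA replication, 16 were higher in the sorted iMPCs, none was lower, and the median was 1.31. In 23 of the 24 every sorted library was above every day 10 library, beside 23.4% of all genes tested. Mki67, the usual marker of dividing cells, was 429, 561 and 602 CPM in the sorted iMPCs, against 203, 178 and 92.9 CPM on day 10 (log2 difference 1.75, SE 0.61, edgeR adjusted p = 0.0215). Mcm6, part of the helicase that opens DNA for copying, was 438, 322 and 342 CPM in the sorted iMPCs, against 129, 121 and 84.003 CPM on day 10 (log2 difference 1.72, SE 0.41, edgeR adjusted p = 0.00127). Pcna, the sliding clamp of DNA polymerase, was 306, 303 and 348 CPM in the sorted iMPCs, against 138, 111 and 84.2 CPM on day 10 (log2 difference 1.52, SE 0.31, edgeR adjusted p = 0.000219), and E2f1, a factor that switches on S phase genes, was 80.6, 74.996 and 93.8 CPM in the sorted iMPCs, against 34.98, 33.8 and 29.9 CPM on day 10 (log2 difference 1.34, SE 0.26, edgeR adjusted p = 0.000143). Day 10 replicate 3 was the lowest library in all 4. The call of Mki67 was lost without it and without sorted replicate 3, and those of Mcm6, Pcna and E2f1 were kept without each library. With the offset from effective length and with limma on TPM the call of E2f1 was lost.

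Of the helicase subunits, Mcm2, Mcm3, Mcm4, Mcm6 and Mcm7 were called and Mcm5 was not. Rrm2 and Tyms, which make DNA building blocks, and the E cyclins Ccne1 and Ccne2 were called, as were Cdk1, Bub1, Birc5 and Tpx2 of mitosis. Without day 10 replicate 3 the calls of Mcm3, Mcm4, Mcm7, Ccne1, Rrm2, Tyms, Cdk1, Bub1, Birc5 and Tpx2 were lost, and with the offset those of Mcm3 and Tyms. The calls of Cdk1, Bub1, Birc5 and Tpx2 were also lost without day 10 replicate 2 and without sorted replicate 3. The 8 uncalled members were Mcm5, Top2a, Ccnb1, Ccna2, Aurkb, Plk1, Cdc20 and Kif11. Plk1, a kinase of mitosis, was 96.4, 85.1 and 117 CPM in the sorted iMPCs, against 72.8, 57.4 and 29.9 CPM on day 10 (log2 difference 0.90, SE 0.54, edgeR adjusted p = 0.181). Cdc20, which starts the separation of chromosomes, was 65.4, 78.6 and 91.7 CPM in the sorted iMPCs, against 70.1, 63.4 and 31.002 CPM on day 10 and was the single member whose groups overlapped. Day 10 replicate 3 moved this count, since without it 5 of the 24 genes were called, and without sorted replicate 3 the number was 8. The summed level of the list was 0.494 to 0.581% of the scaled library in the sorted iMPCs and 0.130 to 0.265% on day 10.

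Brakes of the cell cycle did not move as one. Of 13 such genes and D cyclins, 2 were higher (1 without day 10 replicate 3) and 4 lower in the sorted iMPCs, with a median of -0.08. The shares were 15.4% higher and 30.8% lower, beside 5.89% and 18.7% of all genes tested. Cdkn1a, the p21 inhibitor that stops dividing myoblasts, was 176, 293 and 189 CPM in the sorted iMPCs, against 598, 741 and 669 CPM on day 10 (log2 difference -1.61, SE 0.31, edgeR adjusted p = 0.000106). Rb1, the retinoblastoma protein that holds muscle out of the cycle, was 27.1, 39.9 and 56.8 CPM in the sorted iMPCs, against 141, 203 and 172 CPM on day 10 (log2 difference -2.06, SE 0.35, edgeR adjusted p = 2.30e-05). Cdkn1b, the p27 inhibitor, went the other way at 90.5, 116 and 77.6 CPM in the sorted iMPCs, against 37.6, 33.3 and 42.8 CPM on day 10 (log2 difference 1.32, SE 0.27, edgeR adjusted p = 0.000299). All 3 had groups that did not overlap. Cdkn1c, another inhibitor of the family, was 468, 977 and 1922 CPM in the sorted iMPCs, against 2025, 2946 and 2057 CPM on day 10, lower in every sorted library without a call. Ccnd2 was lower by a log2 difference of -2.31, whereas Ccnd1 and Ccnd3 were not called.

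**Figure D4:**
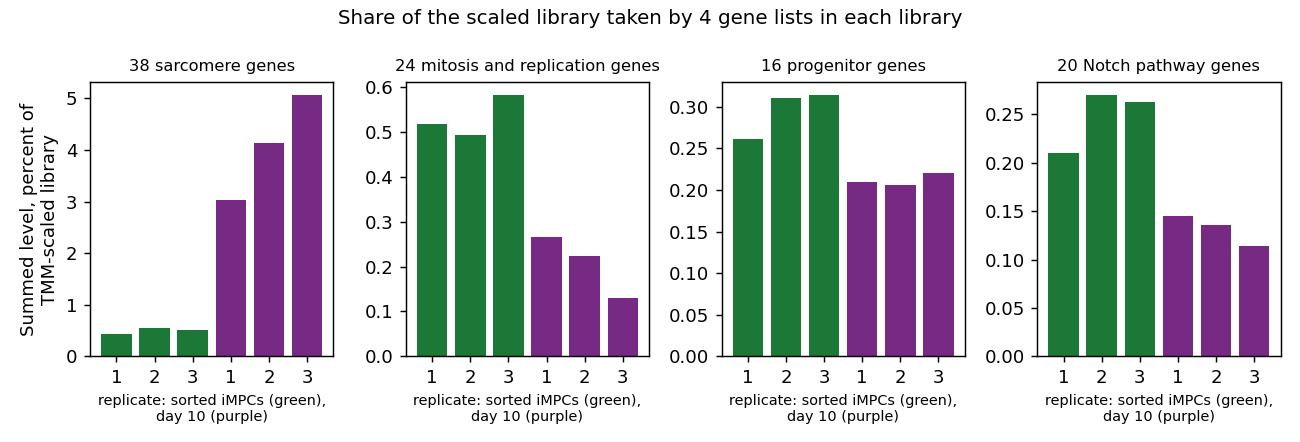
Summed level of 4 gene lists in each library, as a percent of the TMM-scaled library, with green bars for sorted replicates 1 to 3 and purple bars for day 10 replicates 1 to 3. The sarcomere genes take 3.04 to 5.06% on day 10 against 0.442 to 0.548% in the sorted iMPCs, and the order is reversed for the other 3 lists. The progenitor list includes Pax7, whose reporter the sort used.

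Fibroblast genes were unevenly spread between the groups. Of 20 markers 19 were tested, 9 were lower in the sorted iMPCs and none higher, and the median was -2.28. In a fit of the 6 libraries alone 5 were lower. Col1a1, the main chain of type I collagen, was 12.04, 2.79 and 0.413 CPM in the sorted iMPCs, against 689.8, 307 and 1792 CPM on day 10, a 183-fold higher mean on day 10 (log2 difference -7.51, SE 0.98, edgeR adjusted p = 7.16e-07). Thy1, a surface marker of fibroblasts, was 22.4, 4.57 and 2.33 CPM in the sorted iMPCs, against 159.8, 44.5 and 274 CPM on day 10 (log2 difference -4.03, SE 0.83, edgeR adjusted p = 0.00028). Lum, a proteoglycan that spaces collagen fibrils, was 0.217, 0 and 0.207 CPM in the sorted iMPCs, against 14.3, 5.16 and 75.4 CPM on day 10 (log2 difference -7.81, SE 1.80, edgeR adjusted p = 0.00104). In these genes day 10 replicate 3 was highest and replicate 2 lowest of the culture, and sorted replicate 1 held the most Col1a1 and Thy1 of the sorted group. Day 10 replicate 3 thus had the highest summed levels of fibroblast markers and sarcomere genes and the lowest of mitosis and replication genes, and the part of these in each other was not tested.

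Other fibroblast genes were present in both groups. Prrx1, a factor of limb mesenchyme, was 271, 309.7 and 202 CPM in the sorted iMPCs, against 238, 98.3 and 177 CPM on day 10, and Fn1, fibronectin, was 1439, 693 and 695 CPM in the sorted iMPCs, against 837, 323 and 590.2 CPM on day 10. Col3a1 was 940.03, 939 and 329 CPM in the sorted iMPCs, against 824, 348 and 1279.8 CPM on day 10, and Postn ran from 1.13 to 147 CPM among the sorted libraries. Pdgfra, the receptor of fibro-adipogenic cells, was 21.5, 1.09 and 0.0517 CPM in the sorted iMPCs, against 35.5, 6.43 and 68.5 CPM on day 10 (log2 difference -2.28, SE 1.07, edgeR adjusted p = 0.0864). All 5 overlapped between the groups. The summed level of the markers was 0.158 to 0.315% of the scaled library in the sorted iMPCs and 0.159 to 0.581% on day 10, with overlap. In untreated MEFs, Col1a1 was 3987 ± 723 CPM and Thy1 1464 ± 206 CPM (SD, n = 3).

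Collagens split in a similar way. Of 25, 10 were lower and 2 higher in the sorted iMPCs, with a median of -1.35, and their summed levels overlapped at 4104 to 7488 CPM in the sorted iMPCs and 4569 to 11983 CPM on day 10. The shares were 40% lower and 8% higher, beside 18.7% and 5.89% of all genes tested. Neither higher call held without day 10 replicate 2 or 3 or sorted replicate 2, and no more than 1 without day 10 replicate 1 or sorted replicate 3. Col7a1, of anchoring fibrils, was 4.03, 4.57 and 2.33 CPM in the sorted iMPCs, against 52.1, 27.1 and 89.3 CPM on day 10 (log2 difference -3.94, SE 0.65, edgeR adjusted p = 1.71e-05), and Col19a1 was 4.55, 11.2 and 7.70 CPM in the sorted iMPCs, against 80.4, 112 and 88.5 CPM on day 10 (log2 difference -3.58, SE 0.54, edgeR adjusted p = 5.65e-06). Col15a1, of the muscle basement membrane, was called higher, yet it was 99.2, 1388 and 1499 CPM in the sorted iMPCs, against 211, 186 and 295 CPM on day 10. Sorted replicate 1 lay below the day 10 libraries and the other 2 far above them (log2 difference 2.11, SE 0.83, edgeR adjusted p = 0.0408). Its call was lost when any single day 10 library, or sorted replicate 2 or 3, was left out. The basement membrane chains Col4a1 and Col4a2 overlapped, with log2 differences of 0.02 and -0.22.

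Of 24 laminins and integrins, 6 were lower in the sorted iMPCs and 1 higher, with a median of -0.78. These shares are near those of all genes tested, 18.7% lower and 5.89% higher. Itga6, a laminin receptor subunit, was 47.5, 42.7 and 45.7 CPM in the sorted iMPCs, against 157, 184 and 164 CPM on day 10 (log2 difference -1.89, SE 0.28, edgeR adjusted p = 4.90e-06). Itga4, which binds Vcam1, was 57.5, 141 and 188 CPM in the sorted iMPCs, against 459, 587 and 519.8 CPM on day 10 (log2 difference -2.02, SE 0.55, edgeR adjusted p = 0.00421), and Itga11, a collagen receptor of fibroblasts, had at most 0.202 CPM in the sorted iMPCs against at least 6.38 CPM on day 10. The laminin chain Lama5 was the one called higher, at 412, 247 and 282 CPM in the sorted iMPCs, against 164, 145 and 149 CPM on day 10 (log2 difference 1.04, SE 0.42, edgeR adjusted p = 0.0457), a call lost when any single library other than sorted replicate 2 was left out.

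Smooth muscle genes were lower in 11 of 13 cases, with a median of -2.08, and none was higher. In a fit of the 6 libraries alone 6 were lower. Acta2, the actin of smooth muscle and myofibroblasts, was 121, 579 and 345 CPM in the sorted iMPCs, against 1379.9, 1187 and 809 CPM on day 10 (log2 difference -1.69, SE 0.55, edgeR adjusted p = 0.014), a call lost without sorted replicate 1. Myh11, the myosin of smooth muscle, was 0.173, 9.78 and 0.362 CPM in the sorted iMPCs, against 118, 42.3 and 70.5 CPM on day 10 (log2 difference -4.46, SE 1.05, edgeR adjusted p = 0.00109). Synpo2, an actin bundler shared with skeletal muscle, was 14.7, 61.7 and 30.03 CPM in the sorted iMPCs, against 260.2, 307 and 399.9 CPM on day 10 (log2 difference -3.18, SE 0.54, edgeR adjusted p = 2.47e-05). The list also holds Des, which skeletal muscle makes. Tagln, another smooth muscle gene, overlapped and was not called.

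Of 19 ligands, receptors and targets of TGF-beta, 7 were lower and none higher, with a median of -1.42. The lower share was 36.8%, beside 18.7% of all genes tested. Without sorted replicate 1 the number lower was 12, and without sorted replicate 3 there were 5 lower and 1 higher. Mstn, myostatin, which restrains muscle growth, was 63.9, 19.4 and 20.4 CPM in the sorted iMPCs, against 340.3, 419 and 359 CPM on day 10 (log2 difference -3.43, SE 0.92, edgeR adjusted p = 0.00358). Tgfb3, a ligand, was 63.2, 57.5 and 36.95 CPM in the sorted iMPCs, against 205, 167 and 237 CPM on day 10 (log2 difference -1.95, SE 0.46, edgeR adjusted p = 0.0012), and Inhba, the activin A chain, was 12.2, 3.64 and 1.29 CPM in the sorted iMPCs, against 61.5, 17.5 and 33.3 CPM on day 10 (log2 difference -2.71, SE 0.75, edgeR adjusted p = 0.00454). Ccn2, a target of TGF-beta and of stretch, was 0.563, 2.30 and 0.569 CPM in the sorted iMPCs, against 97.1, 28.9 and 39.5 CPM on day 10, nearly absent from the sorted libraries (log2 difference -5.56, SE 1.07, edgeR adjusted p = 0.000128). The receptors Tgfbr1 and Tgfbr2 and the ligand Tgfb2 were not called.

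Of 18 BMP genes, 7 were lower and 1 higher (38.9% and 5.56%, beside 18.7% and 5.89% of all genes tested). The number lower was 4 without day 10 replicate 1, day 10 replicate 3, sorted replicate 2 or sorted replicate 3. Bmp7 was the higher one, at 11.9, 1.37 and 39.9 CPM in the sorted iMPCs, against 0.596, 1.85 and 1.17 CPM on day 10, with sorted replicate 2 inside the day 10 range (log2 difference 3.88, SE 0.73, edgeR adjusted p = 0.000102). Id1, which BMP switches on, was 25.6, 41.6 and 19.7 CPM in the sorted iMPCs, against 77.7, 51.8 and 38.4 CPM on day 10, with overlap and no call.

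Few feedback genes of FGF and ERK signalling were called. Of 17 genes, Fgfr4 was higher, Fgfr2 and Spry4 were lower, and the median was -0.0039. The shares were 5.88% higher and 11.8% lower, beside 5.89% and 18.7% of all genes tested. The call of Fgfr2 was lost without day 10 replicate 1 or sorted replicate 2 or 3. Spry4, an inhibitor in the loop, was 16.2, 48.9 and 45.9 CPM in the sorted iMPCs, against 114, 116 and 81.5 CPM on day 10 (log2 difference -1.49, SE 0.34, edgeR adjusted p = 0.000873), while Spry2 and Dusp6 overlapped between the groups and were not called. Of 13 tested Wnt targets, 1 was higher and 4 lower (7.69% and 30.8%), or 2 and 3 without sorted replicate 1 or 2. Tcf7, a Wnt-responsive factor, was 56.8, 30.4 and 14.2 CPM in the sorted iMPCs, against 5.01, 2.39 and 6.92 CPM on day 10 (log2 difference 2.82, SE 0.53, edgeR adjusted p = 8.69e-05), but Axin2, the usual readout of the pathway, was 19.7, 16.8 and 19.4 CPM in the sorted iMPCs, against 13.8, 12.6 and 14.2 CPM on day 10 and not called. Of 13 genes of the cAMP response, Pde4b was higher at 158, 190.1 and 161 CPM in the sorted iMPCs, against 78.7, 63.3 and 79.9 CPM on day 10 (log2 difference 1.20, SE 0.33, edgeR adjusted p = 0.00438) and 4 were lower. These were 7.69% and 30.8% of the 13, beside 5.89% and 18.7% of all genes tested. Sik1, a kinase that cAMP induces, was 128, 110.2 and 90.1 CPM in the sorted iMPCs, against 321, 351 and 373 CPM on day 10 (log2 difference -1.67, SE 0.37, edgeR adjusted p = 0.000626).

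Insulin-like growth factor genes included a low Igf1 in the sorted iMPCs, while Igf2 was not called. Of 11 genes 3 were lower and none higher, and the lower share of 27.3% stands beside 18.7% of all genes tested. Igf1 was 0.130, 1.17 and 0.0517 CPM in the sorted iMPCs, against 13.5, 6.82 and 17.3 CPM on day 10 (log2 difference -4.72, SE 0.84, edgeR adjusted p = 5.26e-05), and Igfbp6, which binds IGF2, was also called lower, at a log2 difference of -4.08. Igf2, the fetal growth factor, was 7146, 8813 and 6332 CPM in the sorted iMPCs, against 8895, 8545 and 9930 CPM on day 10, with overlap.

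Of 25 imprinted and oncofetal genes 7 were lower and 2 higher, with a median of -0.63, and 4 of the lower ones lie at a single imprinted locus. The shares were 28% lower and 8% higher, beside 18.7% and 5.89% of all genes tested. Meg3, a noncoding RNA of the Dlk1-Meg3 locus on chromosome 12 (chr12:109541001-109571726 in GRCm38), was 162, 212 and 507 CPM in the sorted iMPCs, against 2198, 3484 and 2824 CPM on day 10 (log2 difference -3.27, SE 0.61, edgeR adjusted p = 9.43e-05). Rian, another noncoding RNA of that locus, was 126, 122 and 237 CPM in the sorted iMPCs, against 905, 1432 and 1398 CPM on day 10 (log2 difference -2.94, SE 0.46, edgeR adjusted p = 9.18e-06). Mirg, which hosts microRNAs there, was 7.76, 12.5 and 21.1 CPM in the sorted iMPCs, against 157, 260.4 and 212 CPM on day 10 (log2 difference -3.93, SE 0.51, edgeR adjusted p = 7.84e-07). The groups did not overlap in any of the 3. Rtl1, a retrotransposon-derived gene at the locus, differed by -4.14, although a transcript runs antisense to it and the strand setting of the counts is not given in the sources used here. Dlk1, the gene at the other end, was 38.6, 286 and 626 CPM in the sorted iMPCs, against 532, 866 and 1024 CPM on day 10, with overlap and no call. H19, next to Igf2 on chromosome 7, was not called either, at a log2 difference of -0.29.

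Mest, a paternally expressed gene of mesoderm, was called higher, at 3300.4, 1590.3 and 2976 CPM in the sorted iMPCs, against 823, 764 and 513 CPM on day 10 (log2 difference 1.91, SE 0.65, edgeR adjusted p = 0.0187), a call lost without day 10 replicate 3 or sorted replicate 1. Sgce, a muscle membrane protein from an imprinted locus, was also higher, at 66.9, 40.4 and 63.8 CPM in the sorted iMPCs, against 21.5, 20.98 and 27.2 CPM on day 10 (log2 difference 1.30, SE 0.25, edgeR adjusted p = 0.000149). In both the groups did not overlap.

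Ranking the called genes by fitted difference brought up further genes. Among the 15 largest in favour of the sorted iMPCs, Zic1, a zinc finger factor of somites and neural tube, was 33.9, 44.8 and 94.1 CPM in the sorted iMPCs, against 1.51, 1.66 and 1.80 CPM on day 10 (log2 difference 5.11, SE 0.67, edgeR adjusted p = 8.37e-07). Esx1, a homeobox gene of the X chromosome, was 63.99, 17.3 and 47.8 CPM in the sorted iMPCs, against 0.795, 1.51 and 0.777 CPM on day 10 (log2 difference 5.39, SE 0.89, edgeR adjusted p = 2.18e-05). Wscd1, a sulfotransferase, was 1.26, 7.60 and 55.7 CPM in the sorted iMPCs, against 0.199, 0.292 and 0.0706 CPM on day 10, with 1 library high and all 3 above day 10 (log2 difference 6.85, SE 1.12, edgeR adjusted p = 2.37e-05). Alx1 and Pde1a were high in replicates 1 and 2 and low in replicate 3, while B3gat1 was high in replicate 1 alone. Iigp1, an interferon-inducible GTPase with close relatives, was 34.4, 32.8 and 13.8 CPM in the sorted iMPCs, against 3.38, 0.925 and 1.80 CPM on day 10, and its reads were partly divided with other genes. The rest of these 15 were Calcr, Chodl, Ntn5, Ntf3, Adgrg2, Soga3, Slc2a3 and Myf5, and the call of Slc2a3 was lost without sorted replicate 1.

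Among the 15 largest in favour of day 10 most had next to no reads in the sorted iMPCs. Adgrg1, an adhesion receptor, was 0.0867, 0.0404 and 0.258 CPM in the sorted iMPCs, against 54.5, 54.2 and 68.04 CPM on day 10, with even levels within the culture (log2 difference -8.87, SE 0.59, edgeR adjusted p = 3.95e-12). Astn2 had at most 2 reads in each sorted library and was 30.6, 44.3 and 62.4 CPM on day 10, at least 295-fold lower in the iMPCs. Lyve1, a hyaluronan receptor best known from lymphatic vessels, was at least 161-fold lower, and Cd3g, a T cell receptor chain, at least 154-fold. Ptprc, the marker of all leukocytes, had no read in 5 of the 6 libraries. Gabrd, Cpxm2, Nxf7, Rspo4, Ppbp, Pkd2l1, Tnn and Myl3 had bounds between 36.5 and 160.3. Serpinb9g, Fam177a and Prl2c3 complete these 15 and are uncertain, since the deposited counts divide part of their reads with other genes, as they do for Astn2.

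Markers of endothelial, immune and epithelial cells summed to no more than 10.97 CPM in any of the 6 libraries, and those of other types summed higher in most. A sum can rest on 1 or a few genes of its list. Of 8 endothelial genes 6 could be tested and 2 were lower in the sorted iMPCs (none without day 10 replicate 3), and the summed level was 1.17 to 1.66 CPM there and 2.07 to 3.18 CPM on day 10. Those 2 are 33.3% of the genes tested on this list, beside 18.7% of all genes tested. Immune genes summed to 4.38 to 8.17 CPM in the sorted iMPCs and 6.04 to 6.89 CPM on day 10, with Cd68 at 3.60, 4.81 and 7.60 CPM in the sorted iMPCs, against 4.13, 4.58 and 3.46 CPM on day 10. The 8 epithelial genes summed to 0.0517 to 0.283 CPM in the sorted iMPCs and 5.36 to 10.97 CPM on day 10, and all 4 that could be tested were lower. They were led by Krt18, a keratin that mesenchymal cells also make, at 0.173, 0 and 0 CPM in the sorted iMPCs, against 6.996, 3.21 and 4.13 CPM on day 10 (log2 difference -6.21, SE 1.33, edgeR adjusted p = 0.000419), while Krt14 had no read. Foxd3, a neural crest factor, was 0.0433, 0.323 and 0.465 CPM in the sorted iMPCs, against 6.40, 14.5 and 12.4 CPM on day 10 (log2 difference -5.32, SE 0.80, edgeR adjusted p = 9.42e-06), but Sox10, the defining factor of Schwann cells, was at most 0.155 CPM in any library. Dcx, a microtubule protein of young neurons that is also known in muscle precursors, was 1.21, 4.49 and 5.27 CPM in the sorted iMPCs, against 73.3, 74.8 and 164 CPM on day 10 (log2 difference -4.84, SE 0.79, edgeR adjusted p = 1.64e-05), with Rbfox3 at 0. Of 8 pericyte genes 1 was higher, Notch3, and 2 of the 3 lower ones were Abcc9 and Kcnj8, a pair of potassium channel subunits. The pericyte shares were 12.5% higher and 37.5% lower, beside 5.89% and 18.7% of all genes tested. The pericyte markers summed to 778 to 922 CPM in the sorted iMPCs and 513 to 729 CPM on day 10. Most of the sorted sums was Notch3, whereas 6 of the 8 genes had a negative log2 difference and the median was -1.15. The adipocyte markers summed to 142 to 279.8 CPM in the sorted iMPCs and 189 to 304 CPM on day 10. Neuron markers, Dcx among them, summed to 19.6 to 168 CPM in the sorted iMPCs and 107 to 211 CPM on day 10, and bone markers to 13.7 to 113 CPM in the sorted iMPCs and 75.997 to 254 CPM on day 10. Glial markers summed to 8.45 to 66.5 CPM in the sorted iMPCs and 22.8 to 33.8 CPM on day 10 and cartilage markers to 14.9 to 34.7 CPM in the sorted iMPCs and 17.7 to 22.1 CPM on day 10. The part of such cells in the results was not tested.

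Beside the established lines, the day 10 values fell into more than 1 pattern. Levels are given as mean ± SD over 3 libraries, and no test was made. The iMPC clones were kept with F/R/C after 13 days of Dox+F/R/C, the myoblasts came from skeletal muscle and were sorted for Pax7, and both groups share the genotype given above. Acta1 was 4179.8 ± 616 CPM in unsorted iMPC clones, beside 4327 ± 1607 CPM on day 10 and 207 ± 121 CPM in the sorted iMPCs. Meg3 was 2653 ± 365 CPM in those clones and 2835 ± 643 CPM on day 10, but 294 ± 187 CPM in the sorted iMPCs and 2.41 ± 2.01 CPM in sorted Pax7-positive myoblasts. Myf5 was 28.6 ± 22.8 CPM in the clones and 112 ± 21.2 CPM in sorted myoblasts, both above the 3.61 ± 1.81 CPM of day 10. Notch3 and Mki67 differed from that order. Notch3 was 117 ± 55.1 CPM in the clones and 118 ± 67.2 CPM in sorted myoblasts, below the 251 ± 55.8 CPM of day 10, and the sorted iMPCs at 662 ± 46.3 CPM stood above all. Mki67 was 201 ± 96.6 CPM and 157 ± 35.8 CPM in the same 2 groups, against 531 ± 90.2 CPM in the sorted iMPCs. On the way to day 10, day 4 cultures held Myf5 at 0.899 ± 0.624 CPM, those of day 6 at 2.61 ± 0.989 CPM and those of day 8 at 3.41 ± 1.59 CPM, and the highest mean of Acta1 was on day 4 at 10259 ± 1863 CPM.

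**Figure D5:**
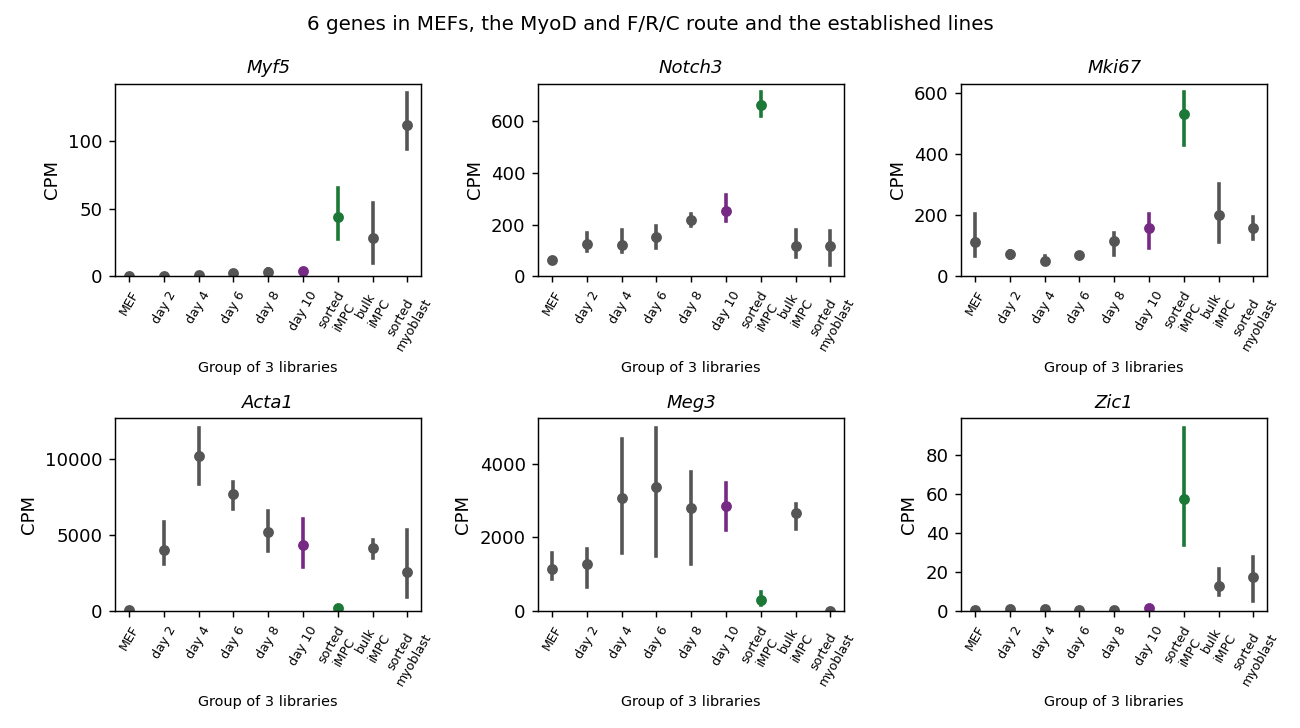
Level in CPM (vertical axes) of 6 genes in 9 groups of 3 libraries: MEFs, days 2 to 10 of MyoD with F/R/C, sorted iMPCs, unsorted iMPC clones and sorted myoblasts. Points are group means and lines run from the lowest to the highest library, with day 10 in purple and sorted iMPCs in green. Notch3, Mki67 and Zic1 are highest in the sorted iMPCs, and Acta1 and Meg3 are near the bottom there.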

How the data were processed

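RNA was profiled by stranded poly-A RNA-seq, read from a single end, per the labels' protocols. Per the file headers, the authors deposited a length, effective length, estimated counts and TPM for every transcript of each library, and no step that pooled replicates is recorded. The estimated counts are deposited without normalization, with reads shared out between the transcripts they match. The deposited TPM values are scaled to length and to a fixed sum and keep no depth. The submitters' processing notes name bcl2fastq 2.19, Trimmomatic 0.36, kallisto 0.44, edgeR 3.28 and GRCm38.p6, with no role or order. The fragment-length settings, the strand setting and the transcript release are not given in the sources used here.

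Of 121843 transcripts 121104 matched GENCODE M21 (GRCm38) by ID and 739 did not, and those matched held 99.5 to 99.6% of the reads of these 6 libraries. Gene totals of the estimated counts were taken for 35675 genes and rounded. A single model of all 45 libraries, with 1 term for every group, was fitted in edgeR 4.0.16 (R 4.3.3; TMM, filterByExpr, glmQLFit, glmQLFTest), which left 30 residual degrees of freedom. A call needed an adjusted p (Benjamini-Hochberg, 17325 genes) under 0.05 and a log2 difference of 1 or more in size. The SE is the log2 difference divided by the root of F. Where no library of a group passed 3 reads, folds were taken against this floor, a mean of 0.155 CPM in the sorted iMPCs and 0.146 CPM on day 10, a floor that covers counting error only. A count was taken as whole within 0.01.

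The comparison, its members and all gene lists were chosen with earlier results of these data known, so counts over a list are descriptions and no list was tested. Named genes are members of those lists, the 15 called genes with the largest and the 15 with the smallest fitted difference (at least 5 CPM in the higher group, no overlap, named symbols), and the 10 uncalled progenitor or myogenic genes with the highest level. Hox genes named in the closing section were chosen after their values were seen. DESeq2 1.42.0, limma 3.58.1 on log2 of TPM plus 0.5 and other settings were run as alternatives. The fit has no replicate block. On simulated counts for 17115 genes of this comparison, with 200 changed 4-fold, 179 genes were called, namely 175 of the changed ones (87.5% of 200) and 4 false ones, and the direction was right for all 200. Both groups were simulated from the day 10 means with the spread that the model had estimated, and changes went up and down in equal numbers. The data have far more differences, mostly in 1 direction, so the simulation does not give their error rate. Promoter sequences are from RefSeq. Values of some listed genes are not reported here. With 3 libraries against 3, an exact permutation test of a single gene could not go below p = 0.1, so none was run.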

Additional observations from a re-analysis of the deposited data

How the results depend on the processing

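The numbers of genes called (4267 in all, 1020 higher and 3247 lower in the sorted iMPCs) stayed within 1.5 times of these under RLE factors, no filter on low counts, an offset from effective length, DESeq2 (1095 higher, 3368 lower) and limma on TPM (1067 higher, 2881 lower). Shared calls were 98.95% of the reported ones with DESeq2 and 70.85% with limma. Leaving out 1 library at a time gave 3173 to 4419 calls, 691 to 1123 higher and 2482 to 3296 lower, with the lowest of each range without day 10 replicate 3. Fitting only the 6 libraries gave 2120 lower genes. In genes with whole counts, of which 9488 were tested, 2520 were called, 525 higher and 1995 lower, since fewer genes entered. Here the p-values of the same fit were only adjusted again. With no minimum fold 7078 were called and 3023 were higher, and with a minimum log2 difference of 2 these were 2560 and 198. Whether the replicate numbers pair the samples was not settled. Same-numbered libraries correlated in their deviations with r of 0.114, -0.0325 and -0.0904, and 1 of the 3 sorted libraries correlated best with its own number. Xist and the Y-linked genes did match by number, and correlations among so few libraries cannot decide on pairing. A replicate block in the fit of all 45 libraries gave 4424 calls, and in the fit of the 6 libraries 2095 calls, 532 higher and 1563 lower. For the counts that moved otherwise, the cause was not tested. Of 537 named genes tested, 264 were called, and 147 of these calls were kept under every alternative run and 190 without each library. Dbx1, an uncalled neural homeobox gene, ranged from -2.81 (without sorted replicate 3) to 0.93 on the log2 scale when 1 library was left out, against 0.37 with all, and was -1.50 with limma on TPM. Depth limits genes near the floor of 3 reads, which 874 of the genes called lower had not passed in any sorted library.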

Other observations

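Hox genes, which record position along the body, were called in both directions, and no difference between clusters was tested. Of 11 tested Hoxa genes 3 were called higher in the sorted iMPCs and none lower, with a median log2 difference of 1.86. Hoxa4 was 6.63, 5.66 and 9.30 CPM in the sorted iMPCs, against 1.63, 1.07 and 1.34 CPM on day 10 (log2 difference 2.41, SE 0.55, edgeR adjusted p = 0.000803), and Hoxa7 was 22.6, 14.1 and 18.8 CPM in the sorted iMPCs, against 8.43, 2.77 and 3.64 CPM on day 10 (log2 difference 1.90, SE 0.58, edgeR adjusted p = 0.00938), the latter not called without day 10 replicate 2 or 3. Of 9 tested Hoxd genes 3 were lower and none higher, with a median of -2.44. Hoxd8 was 1.17, 0.444 and 15.3 CPM in the sorted iMPCs, against 17.1, 29.6 and 44.5 CPM on day 10, with sorted replicate 3 far above the other 2 and still below day 10 (log2 difference -2.44, SE 0.99, edgeR adjusted p = 0.048), a call lost without day 10 replicate 2 or 3 or sorted replicate 1 or 2 and with the offset. The Hoxb and Hoxc clusters, with 9 tested genes each, had 1 gene called in each direction, or 11.1%, beside 5.89% higher and 18.7% lower of all genes tested. The sorted libraries differed among themselves here: Hoxb13 had 19.5 CPM in replicate 1, no read in replicate 2 and 0.310 CPM in replicate 3.

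Of 23 genes of glycolysis and hypoxia 4 were called higher in the sorted iMPCs and 1 lower, and the median was 0.78. The shares were 17.4% and 4.35%, beside 5.89% and 18.7% of all genes tested. In 13 of the 23 every sorted library was above every day 10 library, beside 23.4% of all genes tested. The number higher was 2 without sorted replicate 1, 8 without sorted replicate 2, 9 without sorted replicate 3 and 6 without day 10 replicate 3. Slc2a3, a glucose transporter, was 213, 15.2 and 16.3 CPM in the sorted iMPCs, against 5.76, 3.16 and 7.10 CPM on day 10, with sorted replicate 1 far above the other 2 (log2 difference 3.93, SE 0.86, edgeR adjusted p = 0.000511) and the call lost without it. Hk1, the first enzyme of glycolysis, was 139, 191 and 114 CPM in the sorted iMPCs, against 59.5, 48.7 and 89.2 CPM on day 10 (log2 difference 1.17, SE 0.22, edgeR adjusted p = 0.00012), a call lost without sorted replicate 2 and with the offset. Pkm, the last, was 3281, 1930.3 and 2109.6 CPM in the sorted iMPCs, against 1301, 1145 and 1473 CPM on day 10 and missed the fold of a call at 0.90. The 13 protein-coding genes of the mitochondrial genome all lay below day 10 in every sorted library, beside 26.9% of all genes tested. Of these 13 genes 5 were called lower, and the median was -0.67. With the offset from effective length, and with limma on TPM, 2 were called lower, and without day 10 replicate 2 or sorted replicate 1 the number was 3. Their summed level was 2.09 to 2.87% of the scaled library in the sorted iMPCs and 3.46 to 4.43% on day 10. mt-Co3, a subunit of cytochrome oxidase, was 1410.3, 2356 and 2226 CPM in the sorted iMPCs, against 4017, 4565 and 4177 CPM on day 10 (log2 difference -1.09, SE 0.28, edgeR adjusted p = 0.00214), a call lost without day 10 replicate 2 or sorted replicate 1 and with the offset. None of 16 cholesterol synthesis genes was called by edgeR, and their median was 0.04, while 1 was called lower without sorted replicate 3 and with the offset, and 2 with limma on TPM. Of these genes Mvd and Lss had an unadjusted p under 0.05, at 0.0114 and 0.0482 in edgeR.

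Of 32 neural and off-lineage transcription factors 11 could be tested, and 3 were higher in the sorted iMPCs (5 without sorted replicate 2) and 1 lower. The shares of those tested were 27.3% and 9.09%, beside 5.89% and 18.7% of all genes tested. Isl1, a LIM homeobox factor, was 20.9, 10.8 and 8.79 CPM in the sorted iMPCs, against 0.835, 2.53 and 1.94 CPM on day 10 (log2 difference 2.93, SE 0.73, edgeR adjusted p = 0.00177), Isl2 was 2.73, 2.10 and 1.40 CPM in the sorted iMPCs, against 0.199, 0.195 and 0.141 CPM on day 10 (log2 difference 3.51, SE 0.70, edgeR adjusted p = 0.000188) and Lhx2 was 3.99, 6.47 and 10.1 CPM in the sorted iMPCs, against 1.19, 2.43 and 1.06 CPM on day 10 (log2 difference 2.14, SE 0.67, edgeR adjusted p = 0.0111). The groups did not overlap in these 3, and the call of Lhx2 was lost without day 10 replicate 3 or sorted replicate 3. Lhx3 was the lower one, at 0.173, 1.41 and 0.775 CPM in the sorted iMPCs, against 23.8, 11.4 and 1.17 CPM on day 10, with overlap (log2 difference -3.93, SE 1.35, edgeR adjusted p = 0.0275), and its call was lost without day 10 replicate 1 or sorted replicate 1 or 3.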
